A study of Mus musculus with 2 samples.

Results

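The skeletal muscle miRNAs described here are 7 mature miRNAs chosen by name out of 1247 mouse miRNAs with probes on the array, namely mmu-miR-1a-3p, mmu-miR-133a-3p, mmu-miR-133a-5p, mmu-miR-133b-3p, mmu-miR-206-3p, mmu-miR-208b-3p and mmu-miR-499-5p (the prefix mmu, for mouse, is left out from here on). They were measured in knee joint cartilage with 2 one-colour Agilent miRNA arrays, 1 per group. The Col2a1Tsc1KO array held RNA of male mice aged 8 weeks in which Tsc1 had been deleted in a Col2a1-specific manner. The control array held RNA of males of the same age, with the genotype given as wildtype. Per the labels, the cartilage was peeled off the knee and rinsed before RNA extraction. Col2a1 encodes the main collagen of cartilage and Tsc1 restrains the growth kinase complex mTORC1, but the labels do not state which cells had lost Tsc1, name no Cre line and give no number of mice per sample. With 1 array per group there was no replicate check and no p-value, and each error below is a standard error (SE) over spots, which covers technical noise within the arrays only.

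In skeletal muscle, miR-1 and miR-133 are transcribed together from shared precursor transcripts that the myogenic transcription factors and MEF2 switch on. miR-1 is known for promoting myoblast differentiation and miR-133 for promoting myoblast proliferation and restraining SRF. miR-206 is closely related to miR-1, is largely restricted to skeletal muscle, and is raised in differentiating and regenerating fibres. The myosin gene introns that hold miR-208b and miR-499 give miRNAs of slow fibres and heart muscle. In bulk tissue, fewer cells of a type and less RNA per cell cannot be told apart.

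Mature sequences from RefSeq (mouse build GRCm38.p6) were matched for 4 of the 7 miRNAs and are shown because their seeds, bases 2 to 8 in capitals, set the family each belongs to. The seeds of miR-208b-3p and miR-499-5p differ at 1 of 7 bases, while miR-206-3p and miR-133b-3p have unrelated seeds although they come from 1 locus.
miR-206-3p: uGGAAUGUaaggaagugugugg
miR-133b-3p: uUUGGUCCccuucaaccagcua
miR-208b-3p: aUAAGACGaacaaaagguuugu
miR-499-5p: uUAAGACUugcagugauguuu
The mature miR-206-3p lies at chr1:20679055-20679076 and miR-133b-3p at chr1:20682834-20682855, both on the plus strand. Their hairpin genes Mir206 and Mir133b stand 3686 bases apart, and both fall inside the long noncoding RNA gene Lincmd1. The mature miR-208b-3p lies at chr14:54975710-54975731 on the minus strand, within the span of the slow myosin gene Myh7. The mature miR-499-5p lies at chr2:155622893-155622913 on the plus strand, within the span of the myosin gene Myh7b. Mir1a-1 at chr2:180389048-180389124 and Mir133a-2 at chr2:180398379-180398482 give miR-1a-3p and miR-133a-3p, are 9254 bases apart, and are both inside the noncoding gene Mir1a-1hg. Mir1a-2 and Mir133a-1, inside the noncoding gene Mir133a-1hg, give the same mature miRNAs, and the arrays cannot tell these sources apart.

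Each of the 7 miRNAs had 2 probes of different length. The probes of the pair encoded in Lincmd1 are shown because only 1 of the miR-206-3p probes entered the comparison; the capital marks the extra base of the longer probe.
miR-206-3p, 15 bases: ccacacacttcctta
miR-206-3p, 16 bases: ccacacacttccttaC
miR-133b-3p, 18 bases: tagctggttgaaggggac
miR-133b-3p, 19 bases: tagctggttgaaggggacC
The 16-base probe pairs with bases 7 to 22 of miR-206-3p and the 15-base probe with bases 8 to 22. The 19-base probe pairs with bases 4 to 22 of miR-133b-3p and the 18-base probe with bases 5 to 22. The longest probes of miR-133b-3p and miR-133a-3p differ at 1 of the 18 bases compared from their 5′ ends, so signal of these miRNAs cannot be told apart with certainty. Those of miR-1a-3p and miR-206-3p differ at 4 of 16 bases.

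Of the 7 miRNAs, 4 were well above background on both arrays (miR-206-3p, miR-133b-3p, miR-133a-3p and miR-1a-3p) and 3 on neither. This required that, for at least 1 probe, more than 50% of its usable spots carried the scanner software's mark of being well above background. Among all miRNAs, 257 met this on both arrays, with 296 on the Col2a1Tsc1KO array and 281 on the control array. The median intensity of negative-control spots was 4.89 on the Col2a1Tsc1KO array and 4.96 on the control array, and no miRNA spot was saturated. The arrays were set to 1 scale at the 75th percentile of the 476 probes well above background on both, which was 470.0 on the Col2a1Tsc1KO array and 353.6 on the control array, so scaling lowers every Col2a1Tsc1KO value by 1.33-fold relative to control. The 8 probes for synthetic RNAs added in the assay differed, before scaling, by a mean log2 of 0.01, between -0.08 and 0.16. Because the arrays shared 1 slide, group and slide position cannot be told apart.

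The muscle miRNAs fell into a trio that was lower in Col2a1Tsc1KO cartilage (miR-1a-3p with both miR-133 3p arms, each by nearly 2-fold after scaling) and miR-206-3p, which was level after scaling and higher before it. The trio was lower both with and without scaling. Expressed as log2 of Col2a1Tsc1KO over control, the scaled differences were -0.94 ± 0.02 for miR-1a-3p, -0.99 ± 0.02 for miR-133a-3p, -0.996 ± 0.02 for miR-133b-3p and 0.05 ± 0.08 for miR-206-3p (SE over spots). At the 2-fold threshold, used for counting only, 0 of these 4 miRNAs were lower by 2-fold or more, against 45 of all 257 miRNAs (17.5%). At any size 3 of 4 were lower, against 152 of 257 (59.1%), and with no scaling 3 of 4 against 100 of 257 (38.9%). The median of the 4 was -0.97, beside -0.22 over all 257.

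miR-1a-3p, which represses growth and signalling genes in differentiating muscle, was lower in Col2a1Tsc1KO cartilage at both of its probes. The 21-base probe gave unscaled intensities with a lowest, median and highest spot of 972, 1165 and 1260 on the Col2a1Tsc1KO array (20 spots), against 1560, 1590 and 1620 on the control array (16 spots). Its 20-base probe gave 152, 190 and 219 on the Col2a1Tsc1KO array (19 spots), against 255, 283.5 and 322 on the control array (20 spots). Every Col2a1Tsc1KO spot was thus below every control spot of its own probe. After scaling, miR-1a-3p had an intensity of 406 on the Col2a1Tsc1KO array and 777 on the control array, which is 1.91-fold lower, or 1.44-fold lower with no scaling. The scaled log2 difference was -1.01 ± 0.04 for the 20-base probe and -0.86 ± 0.02 for the 21-base probe, so the longer probe showed a smaller difference than the shorter. Of the 257 miRNAs, 51 had a lower difference than miR-1a-3p.

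miR-133a-3p, which shares precursors with miR-1a-3p and is known for repressing SRF, had a similar difference. Its 18-base probe gave unscaled intensities of 269, 305.5 and 349 (lowest, median and highest of 20 spots) on the Col2a1Tsc1KO array, against 437, 459 and 486 (18 spots) on the control array. Its 17-base probe gave 45.5, 54.2 and 63.2 (16 spots) on the Col2a1Tsc1KO array, against 68.7, 81.7 and 93.4 (19 spots) on the control array. The usable spots of the arrays again did not overlap for either probe, and both probes gave a scaled log2 difference of -0.99. A Col2a1Tsc1KO spot of the 17-base probe that was dropped as an outlier read 117, above every usable control spot. The scaled intensity of miR-133a-3p was 112 on the Col2a1Tsc1KO array and 223 on the control array, a 1.99-fold difference, or 1.499-fold with no scaling.

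miR-133b-3p differs from miR-133a-3p near its 3′ end and is encoded beside miR-206 rather than beside miR-1. Its 19-base probe gave unscaled intensities of 495, 520 and 553 (15 spots) on the Col2a1Tsc1KO array, against 720, 758 and 772 (17 spots) on the control array. Its 18-base probe gave 82.9, 95.3 and 106 (16 spots) on the Col2a1Tsc1KO array, against 136, 149 and 158 (18 spots) on the control array. The usable spots of the arrays did not overlap here either, though a Col2a1Tsc1KO spot of the 18-base probe dropped as an outlier read 149. The scaled log2 difference was -1.05 for the 18-base probe and -0.95 for the 19-base probe, and the scaled intensity was 193 on the Col2a1Tsc1KO array and 384.3 on the control array.

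Within the trio the differences were close. That of miR-1a-3p stood above that of miR-133a-3p by a log2 of 0.06 ± 0.03 and above that of miR-133b-3p by 0.06 ± 0.03, and miR-133b-3p and miR-133a-3p were 0.00 ± 0.03 apart (SE over spots), so the order within the trio was not settled beyond about 2 SE. A scaling by 1 factor per array cancels in such contrasts, but quantile normalization does not: with it miR-1a-3p stood at -1.05 and miR-133a-3p at -0.86, which turns their order. Because every probe occupied the same positions on both arrays, spots could also be set against their counterparts: the Col2a1Tsc1KO spot was lower at 96 of 96 usable positions over the 6 probes of the trio.

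**Figure D1:**
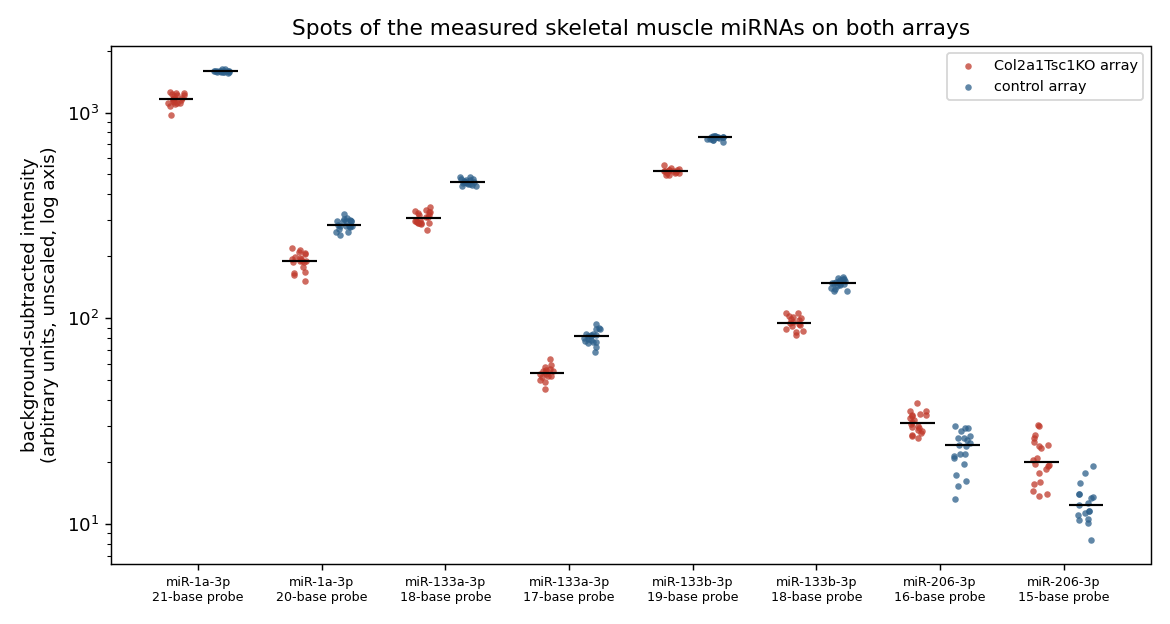
Unscaled, background-subtracted intensity (log axis) of each usable spot of the 8 probes for the 4 miRNAs well above background, with the Col2a1Tsc1KO array left of the control array for each probe and a line at each median. For the 6 probes of miR-1a-3p, of miR-133a-3p and of miR-133b-3p the spots of the arrays do not overlap, while for both miR-206-3p probes they do and the Col2a1Tsc1KO spots lie higher.

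miR-206-3p, the member most restricted to skeletal muscle, was near the detection limit and did not share the lower level of the trio. Its 16-base probe gave unscaled intensities of 26.2, 31.0 and 38.9 (lowest, median and highest) on the Col2a1Tsc1KO array, where all 20 spots were well above background, against 13.2, 24.1 and 30 on the control array, where 11 of 20 were. Its 15-base probe gave 13.6, 20.0 and 30.4 on the Col2a1Tsc1KO array, with 10 of 20 spots well above background, against 8.32, 12.4 and 19 on the control array, with 0 of 17, and it therefore did not enter the comparison. The spots of the arrays overlapped for both probes, with the Col2a1Tsc1KO spots on the higher side. Position by position and unscaled, the Col2a1Tsc1KO spot was higher at 35 of 37 positions, lower at 1 and equal at 1.

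After scaling, miR-206-3p had an intensity of 26.9 on the Col2a1Tsc1KO array and 26.0 on the control array, a log2 difference smaller than its own SE. With no scaling it was 1.38-fold higher in Col2a1Tsc1KO cartilage (log2 0.46). Its position among the 257 miRNAs was in the middle, with 157 lower and 99 higher. The contrast of miR-206-3p minus the mean of the trio, which 1 scaling factor per array leaves as it is, was 1.03 ± 0.08 (SE over spots), or 2.04-fold. It was 1.40 with quantile normalization and 0.82 with normexp background correction before it. Set against its neighbour in Lincmd1 alone, miR-133b-3p was lower by a contrast of -1.05 ± 0.08, or 2.07-fold. The 2 miRNAs from 1 noncoding gene thus differed more from each other than miR-133b-3p did from miR-133a-3p, which is encoded outside that gene. However, the signals of miR-133b-3p and miR-133a-3p cannot be told apart with certainty, and miR-206-3p rests on 1 probe near the detection limit. The comparison therefore cannot show whether miRNAs of 1 locus differed more than miRNAs of 1 family.

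**Figure D2:**
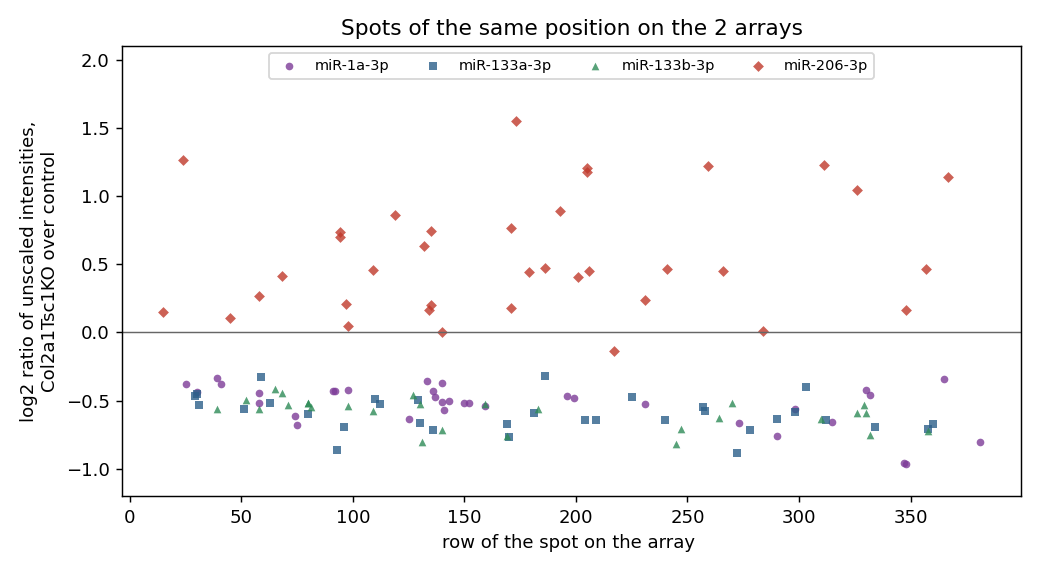
Log2 ratio of unscaled intensities, Col2a1Tsc1KO over control, for spots of the same position on the arrays, plotted against the row of the spot. The 96 points of miR-1a-3p, of miR-133a-3p and of miR-133b-3p all lie below 0, and 35 of the 37 points of miR-206-3p lie above 0.

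The size of the miR-206-3p difference varied between the summaries of its signal. In the authors' deposited table of log2 values, miR-206-3p stood at 4.25 for Col2a1Tsc1KO and 3.29 for control, a difference of 0.97. The same deposited table gave -1.02 for miR-1a-3p, -0.91 for miR-133a-3p and -0.93 for miR-133b-3p, and the contrast of miR-206-3p with the trio was 1.92. The scanner software marked miR-206-3p as detected on both arrays. Probes were counted here as detected when their software total exceeded 3 times its error. By this rule miR-206-3p had 2 detected probes on the Col2a1Tsc1KO array and 1 on the control array. How far this enters the deposited values was not tested. The software's total gene signal was 20.6 on the Col2a1Tsc1KO array, equal to the sum of its detected probes, and 22.1 on the control array, where the detected probe held 9.02 and the other 13.1 is not accounted for by that probe. Summed over both probes whether detected or not, the totals were 20.6 on the Col2a1Tsc1KO array and 14.01 on the control array, a log2 difference of 0.56 with no scaling. Adding the 15-base probe to the scaled comparison moved miR-206-3p from 0.05 to 0.17. That shift was larger than its SE over spots (0.08), though smaller than the spread of single spots (0.37). The trio was lower under all 18 alternative ways of processing, and miR-206-3p was above it in all 17 that measured miR-206-3p. These counts are not of independent checks. A scaling by 1 factor per array cannot change the contrast, and adding the 15-base probe of miR-206-3p cannot change the trio. The software's totals and both kinds of probe sums gave the trio nearly the same values.

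**Figure D3:**
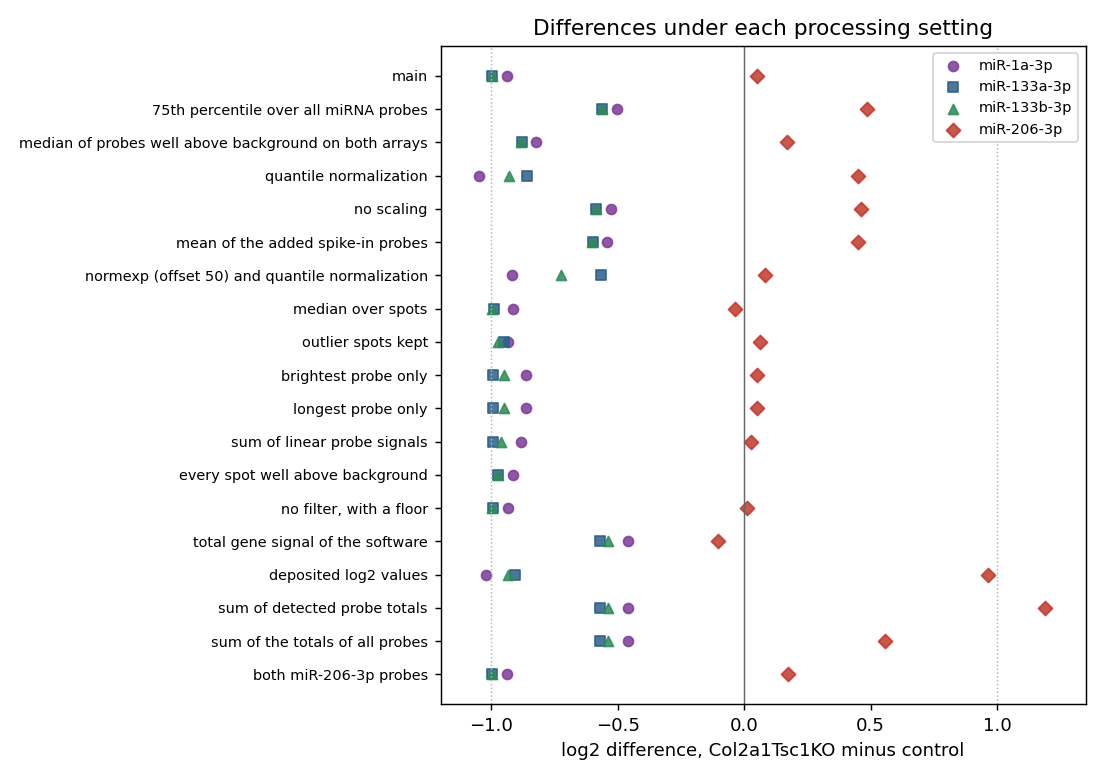
Log2 difference, Col2a1Tsc1KO minus control, of the 4 measured muscle miRNAs under the main setting (top) and 18 alternatives, with dotted lines at the 2-fold threshold. The points of miR-133a-3p, miR-133b-3p and miR-1a-3p lie below 0 in each, and miR-206-3p lies between -0.10 and 1.19.

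The 3 miRNAs well above background on neither array gave no fold change. miR-208b-3p, encoded in the slow myosin gene Myh7, had unscaled median intensities of -4.71 (20-base probe) and -2.77 (21-base probe) on the Col2a1Tsc1KO array, against -5.63 and -3.67 on the control array, where negative values arise because background was subtracted. miR-499-5p, encoded in Myh7b and known for supporting the slow fibre program, had medians of -2.75 (20-base probe) and -2.53 (21-base probe) on the Col2a1Tsc1KO array, against -1.71 and 0.30 on the control array. For both miRNAs 0 usable spots lay above the 95th percentile of the negative-control spots, which was 10.9 on the Col2a1Tsc1KO array and 11.4 on the control array. Among the outlier spots left out, 1 spot of miR-499-5p on the control array lay above it, at 14. Slow-fibre miRNAs were therefore not detectable by these probes on either array.

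miR-133a-5p, the other arm of the miR-133a hairpin, was also not well above background, but 1 of its probes was brighter than negative controls at some spots. The 20-base probe had a lowest, median and highest spot of 1.8, 8.92 and 15.5 on the Col2a1Tsc1KO array, with 7 of 20 above the negative-control percentile, against 7, 13.5 and 20.2 on the control array, with 12 of 20 above it. The Col2a1Tsc1KO spot was lower at 17 of 20 positions of this probe. Its 19-base probe had medians of -1.3 on the Col2a1Tsc1KO array and 0.41 on the control array, with 0 usable spots above the percentile. Of its spots dropped as outliers, 1 on the Col2a1Tsc1KO array (22.6) and 1 on the control array (24.4) lay above it. No usable spot of either probe carried the software's mark, so no fold is given.

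**Figure D4:**
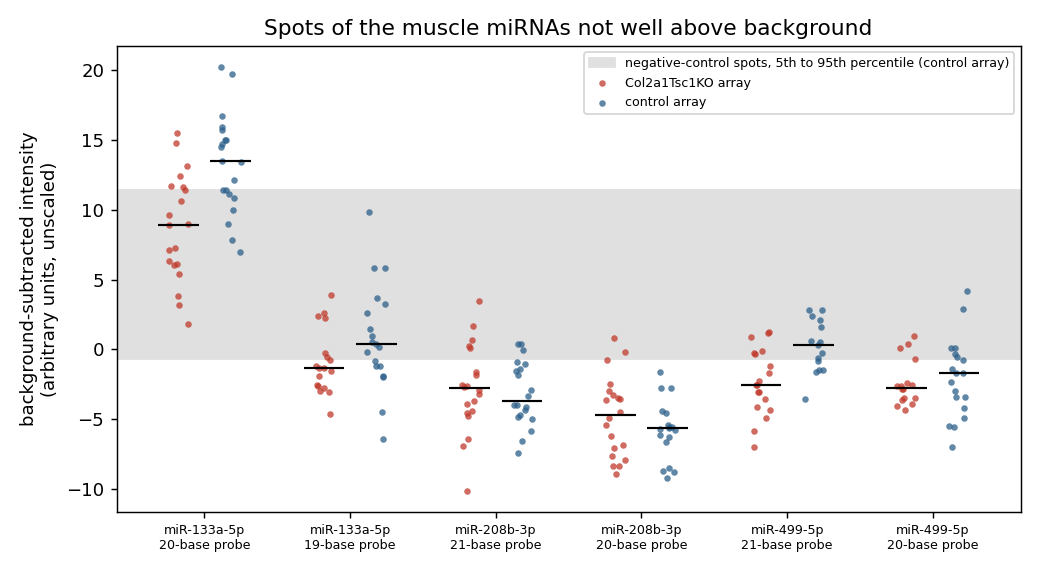
Unscaled, background-subtracted intensity of each usable spot of the 6 probes for miR-133a-5p, miR-208b-3p and miR-499-5p, with the Col2a1Tsc1KO array left of the control array for each probe and a line at each median, over a grey band from the 5th to the 95th percentile of negative-control spots on the control array. Spots of the miR-208b-3p and miR-499-5p probes lie around or below 0, and the 20-base probe of miR-133a-5p has medians of 8.92 on the Col2a1Tsc1KO array and 13.5 on the control array.

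None of the 10 other arms and paralogues with probes was well above background on either array. These were the 5p arms of both miR-1a hairpins, both arms of miR-1b, miR-133b-5p, miR-206-5p, both arms of miR-208a, miR-208b-5p and miR-499-3p. Of the muscle loci, then, mature signal was measured only from the 3p arms of miR-1a, miR-133a, miR-133b and miR-206.

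Other miRNAs with roles in myoblast differentiation or muscle mass, which are also made in many other tissues, were for the most part higher in Col2a1Tsc1KO cartilage. Of 22 such miRNAs with probes, 17 were measured on both arrays, 13 of them higher and 4 lower in Col2a1Tsc1KO cartilage, against 40.9% of all 257 higher. With no scaling 16 of the 17 were higher, against 157 of 257 (61.1%). At least 2-fold higher were 7, against 40 of all 257 (15.6%), and 0 were at least 2-fold lower, against 45 of 257. Their median log2 difference was 0.78, beside -0.22 over all 257. The highest were miR-214-3p at 2.36 ± 0.03, miR-199a-3p at 1.46 ± 0.01 and miR-24-3p at 1.44 ± 0.01 (log2, SE over spots). miR-214-3p and miR-199a-3p come from a transcript of mesenchymal cells, and miR-24-3p is known for promoting myogenic differentiation. miR-24-3p also shares a cluster with miR-23a-3p and miR-27a-3p, which are among the 7 as well, so the 7 are not independent. The lowest were miR-128-3p at -0.48 ± 0.04, miR-221-3p at -0.28 ± 0.02 and miR-222-3p at -0.23 ± 0.04. miR-221 and miR-222 hold myoblasts in cycle by repressing p27, and with no scaling they stood at 0.13 and 0.18, so their direction depended on the scaling, while miR-128-3p stood at -0.07. miR-503-5p, which is known for promoting cell cycle exit in myoblasts, was well above background on the Col2a1Tsc1KO array only. It fell just short on the control array, where 9 of 20 spots of its 16-base probe had the mark. The unscaled medians of that probe were 35.7 on the Col2a1Tsc1KO array and 21.7 on the control array.

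Of the smooth muscle miRNAs only 1 was measured on both arrays, and it also did not follow the trio. miR-143-3p, of the miR-143 and miR-145 cluster, was higher in Col2a1Tsc1KO cartilage by 1.37 ± 0.02 on the log2 scale (SE over spots), with a scaled intensity of 161 on the Col2a1Tsc1KO array and 62.4 on the control array. miR-145a-5p was well above background on the Col2a1Tsc1KO array only, and miR-143-5p and miR-145a-3p on neither. On the control array 6 of 20 spots of the 14-base miR-145a-5p probe had the mark. The entries miR-145-5p and miR-145-3p were not analysed here.

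Markers of other cell types differed between the arrays as well, and their part in the results was not tested. All 4 chondrocyte markers (both arms of miR-140 and of miR-455) were measured, with a summed scaled intensity of 5268 on the Col2a1Tsc1KO array and 2322 on the control array. Their scaled log2 differences were 1.38 for miR-140-5p, 1.01 for miR-140-3p and 1.71 for miR-455-3p, while miR-455-5p stood at -0.03 ± 0.14 (SE over spots). The value of miR-455-5p was imprecise, and it was 0.38 with no scaling. It rested on 1 probe whose spots ran from 28.4 to 100 on the Col2a1Tsc1KO array and from 18.3 to 72.2 on the control array. Relative to miR-140-5p, a miRNA of cartilage, the mean of the trio was lower by a contrast of -2.35 ± 0.02 (log2, SE over spots), or 5.10-fold, at the main setting. Relative to miR-140-3p the contrast was -1.98 ± 0.02, or 3.95-fold. Against miR-455-3p, at 1.71, the contrast would be larger than with either arm of miR-140. Against miR-455-5p, at -0.03, it would be smaller than with either. Its size thus depended on the marker chosen. All 4 leukocyte markers were measured, and their sum was 4454 on the Col2a1Tsc1KO array and 9633 on the control array. The difference of miR-223-3p was -1.17 ± 0.01, below those of the trio, and that of miR-142-3p was -0.95 ± 0.03, within their range, while miR-142-5p stood at -0.59 and miR-150-5p at 0.64. The 4 measured muscle miRNAs summed to 737 on the Col2a1Tsc1KO array and 1410 on the control array. Both endothelial markers were measured and summed to 1977 on the Col2a1Tsc1KO array and 1555 on the control array. The 2 red cell markers measured on both arrays summed to 3472 on the Col2a1Tsc1KO array and 2340 on the control array. None of the markers of liver, neural or epithelial cells was well above background.

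Outside these lists, the 5 miRNAs whose log2 difference was nearest to the median of the measured muscle miRNAs were miR-669n at -0.96, miR-3096b-3p at -0.98, miR-574-5p at -0.95, miR-328-5p at -0.93 and miR-494-3p at -1.01. This likeness is the gap in log2 difference over 2 arrays, and 45 of the 257 miRNAs had a difference lower than that of miR-133b-3p.

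**Figure D5:**
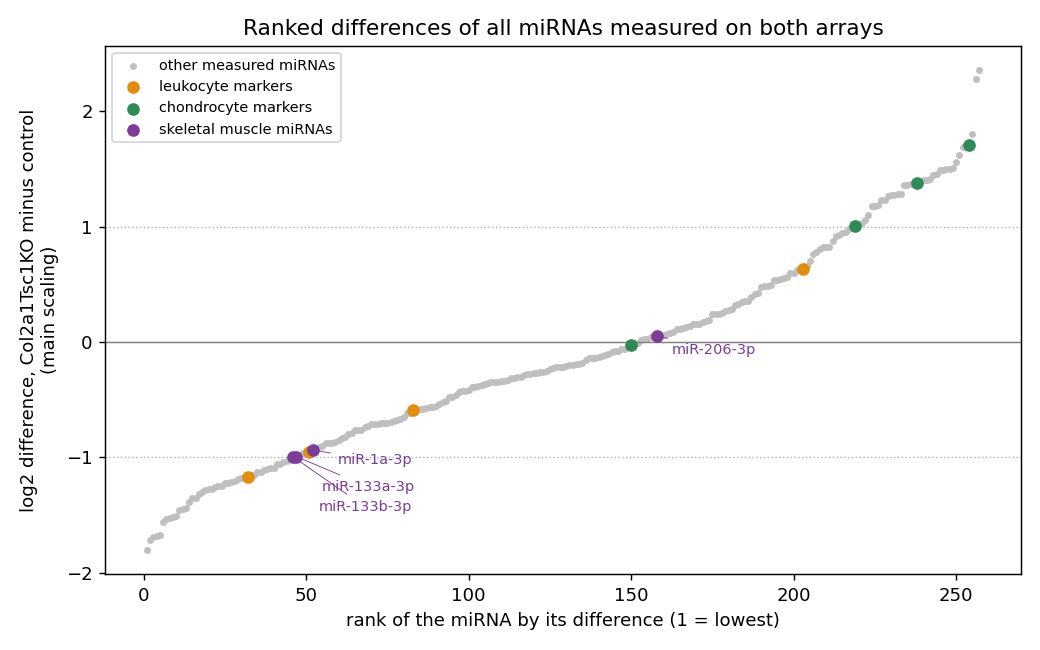
Scaled log2 difference, Col2a1Tsc1KO minus control, of the 257 miRNAs measured on both arrays in order of size, with the muscle miRNAs and the chondrocyte and leukocyte markers in colour and dotted lines at the 2-fold threshold. miR-1a-3p has 51 miRNAs below it, miR-133a-3p has 46, miR-133b-3p has 45 and miR-206-3p has 157.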

How the data were processed

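Per the submitters' processing notes and the file headers, the authors' scanner files came from Agilent Feature Extraction 10.7, and each deposited spot has a background-subtracted intensity and a software total gene signal, with no scaling between arrays. The authors also deposited a table of log2 values. The steps behind it are not given in the sources used here. Its column medians were -3.32 for Col2a1Tsc1KO and -3.26 for control, which are its floors, and its centring is not stated.

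From the intensities, outlier spots were dropped (21 of 280 muscle miRNA spots on the Col2a1Tsc1KO array and 24 of 280 on the control array), log2 values were averaged over the spots of a probe, arrays were scaled to their 75th percentile over probes well above background on both, and probes were averaged per miRNA. Differences are Col2a1Tsc1KO minus control. Scaled intensities are printed on the mean of the percentiles. The smallest probe level well above background was 19.5 on the Col2a1Tsc1KO array and 21.6 on the control array before scaling. The number of arrays limits the precision. The steps were tested on simulated data. Python 3.11.15, pandas 2.3.3, numpy 2.4.6 and, for normexp, limma 3.58.1 were used.

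The 7 members and all lists were chosen with earlier results of these data known. Named were all 7, all other arms and paralogues with probes, the 3 highest and 3 lowest of the myoblast list, the smooth muscle list, and the 5 nearest in difference. In the red cell list 2 of 5 entries, and in the smooth muscle and myoblast lists further entries, had no probe under that name and were not analysed here.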

Additional observations from a re-analysis of the deposited data

Results flagged for a closer look

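The 15-base probe of miR-206-3p was left out of the comparison because it was not well above background on the control array, yet it carried signal on the Col2a1Tsc1KO array. Its median intensity was 20.0 on the Col2a1Tsc1KO array, with 10 of 20 spots well above background, against 12.4 on the control array, with 0 of 17. These intensities are unscaled, and before scaling the Col2a1Tsc1KO spot was brighter at 17 of 17 shared positions. After scaling, the log2 difference of this probe was 0.29. With 1 array per group this has no replicate check.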

How the results depend on the processing

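Of 18 alternatives, 3 were added after seeing the data (sums of detected probe totals, sums of all probe totals, and both miR-206-3p probes). Against the median of -0.97 over the measured muscle miRNAs, the median was -0.53 with all probes entering the 75th percentile, -0.56 without scaling, -0.57 with the added RNAs as the scale, -0.64 with normexp, and -0.50 with each of the software's total gene signals, sums of detected probe totals and sums of all probe totals. Those scales also raised the median of all miRNAs, by 0.43, 0.41 and 0.40 for the first 3. At least 2-fold lower was 1 muscle miRNA with quantile normalization (35 of 257 miRNAs, 13.6%) and 1 in the authors' deposited table (54 of 304, 17.8%), against 0. It was miR-1a-3p in each, at -1.05 and -1.02. The contrast of miR-206-3p with the trio was 0.42 with total gene signals, 1.92 in the deposited table and 1.71 with sums of detected probes. In the last, 2 miR-206-3p probes were summed on the Col2a1Tsc1KO array and 1 on the control array. For the others the cause was not tested. Over the alternatives miR-1a-3p ranged from -1.05 to -0.46, miR-133a-3p from -0.99 to -0.56 and miR-133b-3p from -0.996 to -0.54. miR-206-3p ranged from -0.10 to 1.19, was negative with total gene signals and, at -0.04, with the median over spots, and was not measured when every spot had to be well above background. In the upper rows of the arrays the scaled differences of miR-1a-3p, miR-133a-3p, miR-133b-3p and miR-206-3p were -0.88, -0.97, -0.97 and -0.05, and in the lower rows -1.04, -1.03, -1.04 and 0.18, a difference whose cause was not tested. No paired analysis was possible because there was 1 array per group. No bound was given for any muscle miRNA because none was well above background on 1 array alone.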
